A study of Homo sapiens with 8 samples.

Results

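P-bodies were compared with the cytosolic fraction in HEL, an established human erythroleukaemia cell line with erythroid and megakaryocytic features. The comparison used every HEL library and none of the other line of the series, that is 4 of 8 libraries. The groups were 2 P-body libraries and 2 cytosolic libraries of HEL cells, all grown in RPMI medium with serum, and the labels name no drug, genetic change or time point for any of them. All groups are a single cell line, so that neither donors nor clones replicate the comparison, and nothing in the labels ties the replicates to separate cultures. Of 60196 gene symbols in the HEL table, 14772 had enough counts to be tested.

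P-bodies are granules of the cytoplasm without a membrane, in which messenger RNAs bound by decay and repression factors are held apart from the ribosomes. The proteins that gather there include the decapping enzymes, the helicase DDX6, LSM14A and the Argonaute partners of the TNRC6 family. An mRNA can be stored in the granule and return to translation, and the question addressed by the fractions is which RNAs are found there in leukaemia cells.

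Total counts were 18071473 and 17058567 for P-bodies and 13153551 and 15569634 for cytosol. Levels are given as CPM, read counts scaled to a common library size with TMM factors, and a change is the log2 ratio of P-body over cytosol. These are proportions of a library. Fewer copies of an RNA in the granules and more of other RNAs there cannot be told apart. The number of granules is not measured. CPM does not correct for length, so levels of different genes are not compared per molecule. The line was checked against 14 erythroid and megakaryocytic markers, of which 13 were above 10 CPM in every library. Their summed level was 2420 to 2471 CPM in P-body libraries and 3709 to 3926 in cytosol. Of 22 monocyte and granulocyte markers 6 passed the filter, with MPO, ELANE, PRTN3, S100A9 and S100A12 at 0 counts in every library and a summed level of 78.3 to 87.7 CPM in P-bodies and 105 to 111 in cytosol. Of 22 lymphoid markers 8 passed, MS4A1, EBF1, RAG2 and GZMB had 0 counts everywhere, and the sum was 69.2 to 70.3 CPM against 127 to 139.

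In HEL P-bodies 4061 genes were higher than in cytosol (27.5% of those tested) and 4006 were lower (27.1%), by edgeR's quasi-likelihood test with Benjamini-Hochberg adjustment at an adjusted p below 0.05. A change of at least 2-fold was found for 1855 of the higher genes (12.6% of those tested) and for 937 of the lower ones (6.34%). The largest changes lay on the higher side, with 251 tested genes more than 4-fold higher and 56 more than 4-fold lower. The median of all tested genes was -0.06 and the middle 50% ran from -0.48 to 0.49. Scaling by library totals shifted this median by -0.33 and turned the split to 2762 higher and 6761 lower (29% of called genes higher in place of 50.3%), so that all changes below are relative to the bulk of genes. Genes called higher took 60.7% ± 0.725 of the counts in P-body libraries and 38.2% ± 0.956 in cytosol (SD, n = 2), and genes called lower 19.2% ± 0.188 and 36.4% ± 1.17.

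**Figure D1:**
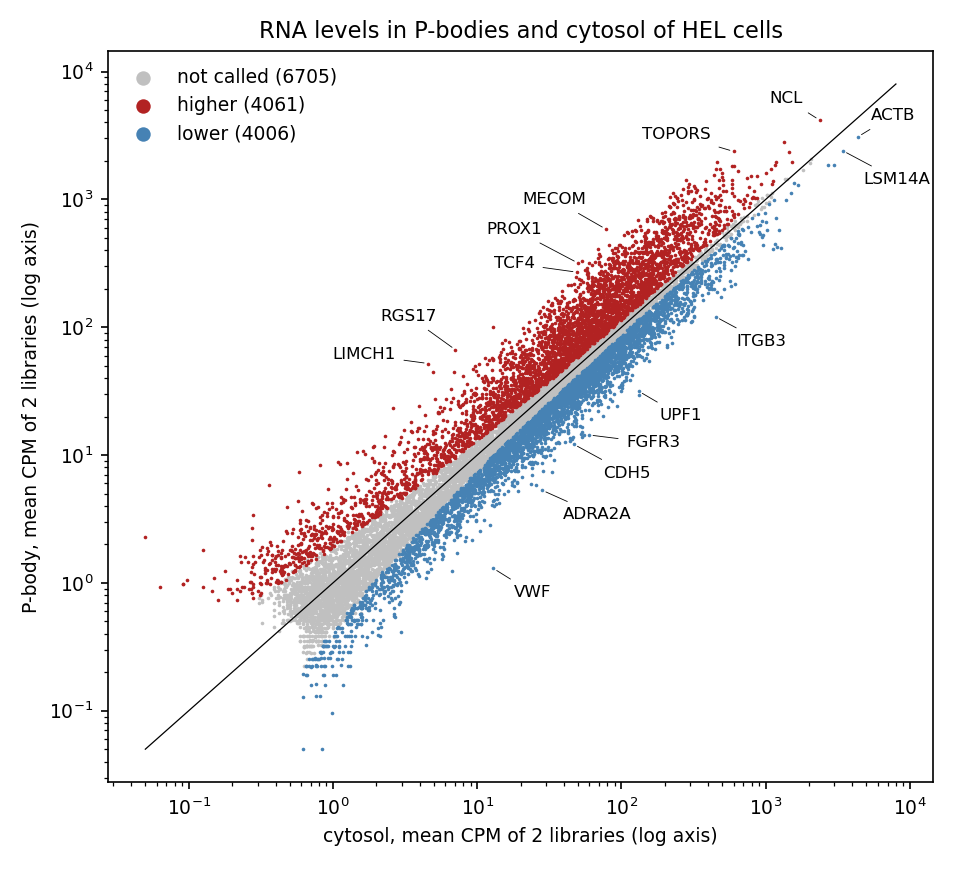
Mean CPM of the 2 P-body libraries against that of the 2 cytosolic libraries for each of 14772 tested genes, both on log axes, with genes called higher in red, called lower in blue and not called in grey, and values under 0.05 CPM drawn at 0.05. The line marks equal levels; MECOM, PROX1 and TCF4 lie far above it and ITGB3, UPF1, FGFR3 and VWF below it.

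Among the 12 highest genes with at least 10 CPM on average were the transcription factors MECOM, PROX1 and TCF4. MECOM, a zinc finger transcription factor whose locus is rearranged in some myeloid leukaemias, stood at 621 and 551 CPM in P-bodies and at 76.2 and 79.9 in cytosol. This is a 7.50-fold higher level (log2 change 2.91 ± 0.0825, SE, adjusted p = 2.6e-11). PROX1, a homeobox transcription factor, was measured at 336 and 300 CPM against 44.6 and 55.3, a log2 change of 2.67 ± 0.102. TCF4, a basic helix-loop-helix transcription factor, was at 274 and 265 CPM against 50.3 and 48.1, 5.48-fold higher. MECOM, PROX1 and TCF4 were far apart between the fractions and close between replicates. CSPP1, a protein of centrosomes and spindle poles, was at 337 and 324 CPM against 51.9 and 54.3. ENC1, a kelch protein that binds actin, was 6.51-fold higher, at 51.2 and 38.5 CPM against 6.72 and 7.03. The noncoding LINC02228 was the one gene of the 12 that encodes no protein, at 23.7 and 24.5 CPM against 4.41 and 3.46. The other members of the 12 were LIMCH1, RGS17, CFAP210, ZNF141, FAM111B and KLHL28, with log2 changes from 2.57 for KLHL28 to 3.50 for LIMCH1. P-body and cytosolic libraries did not overlap for any of the 12, as the rule that chose them required.

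Of the 12 lowest genes, CDH5, the cadherin of endothelial junctions, was at 13.1 and 11.2 CPM in P-bodies and 46.1 and 47.3 in cytosol, 3.84-fold lower (log2 change -1.94 ± 0.123, adjusted p = 4.5e-09). NID1, a basement membrane glycoprotein, was at 25.8 and 22.3 CPM against 92.6 and 95.2, a log2 change of -1.96 ± 0.103. IGF2R, the receptor that carries mannose 6-phosphate tagged enzymes to lysosomes, was at 13.3 and 15.3 CPM against 50.3 and 60.5. CDH5, NID1 and IGF2R were close between replicates, whereas the receptor tyrosine kinase FGFR3 was not. FGFR3 was at 7.71 and 21.0 CPM in P-bodies against 43.7 and 75.4 in cytosol, with a log2 change of -2.06 ± 0.311 that ran from -2.86 to -1.50 when each library was left out in turn. Leaving out libraries gave a range of -2.93 to -1.34 for MXRA7, a protein linked to matrix remodelling (6.65 and 21.1 CPM against 38.5 and 68.7), and -2.48 to -1.26 for GNA12, a G protein alpha subunit (4.26 and 7.68 CPM against 14.3 and 33.2). FGFR3, MXRA7 and GNA12 stayed below cytosol in every such fit, but their size rests on single libraries. CNNM4, a magnesium transporter, was 3.85-fold lower, and ADRA2A, ITGB5, SELENON, RNPEPL1 and UPF1 made up the rest, with log2 changes from -2.42 for ADRA2A to -2.06 for UPF1. Of these, ADRA2A ran from -3.06 to -1.93 without single libraries, ITGB5 from -2.54 to -1.68 and RNPEPL1 from -2.66 to -1.57. UPF1 ran from -2.48 to -1.69 and SELENON from -2.45 to -1.82.

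The most abundant RNAs of the P-body libraries did not share a direction. NCL, the nucleolar protein nucleolin, led with 4344 and 4003 CPM in P-bodies and was 1.76-fold higher than in cytosol (2299 and 2437 CPM). TOPORS, a ubiquitin and SUMO ligase, stood at 2534 and 2210 CPM against 608 and 595, and the helicase DDX21 at 2010 and 1933 against 463 and 450. TOPORS and DDX21 were thus among the top 10 of the P-body fraction with log2 changes of 1.98 and 2.11, above that of NCL (0.82). ACTB, cytoplasmic beta actin, was 1.41-fold lower (3228 and 2954 CPM against 4255 and 4469). LSM14A, itself a protein of P-bodies, had its mRNA 1.43-fold lower there, at 2411 and 2395 CPM against 3541 and 3315. DDX5, HSPA8 and PLEK were called higher by log2 changes of 0.68, 0.73 and 0.37, the last lost under library totals. The elongation factor EEF1A1 was not called (log2 change 0.01 ± 0.0773, adjusted p = 0.927), but was called lower under library totals (-0.32) and higher without HEL P-body replicate 2 (0.19).

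The change of an mRNA followed the base composition of its coding sequence. Coding genes were ordered by GC3, the GC content at the third position of their codons, where most base changes leave the amino acid as it is. Of 10 equal classes, in the lowest class of GC3 (median 33.2%) 930 of 1193 genes were higher in P-bodies and 60 lower, that is 78.0% and 5.03%, with a median log2 change of 0.90. In the highest class (median 83.9%) 41 were higher and 641 lower (3.44% and 53.7%), with a median of -0.54. The medians fell from class to class and crossed 0 between the class with a median GC3 of 54.4% (0.03) and that of 60.7% (-0.18). Across the 11922 nuclear coding genes with a value, Spearman's coefficient between GC3 and log2 change was -0.64. This is a description over genes that share the same 4 libraries. Of the 12 lowest genes all 12 had a GC3 above 60%, from 60.3% to 93.5%, and of the coding genes among the 12 highest ENC1 alone did, at 61.5%.

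**Figure D2:**
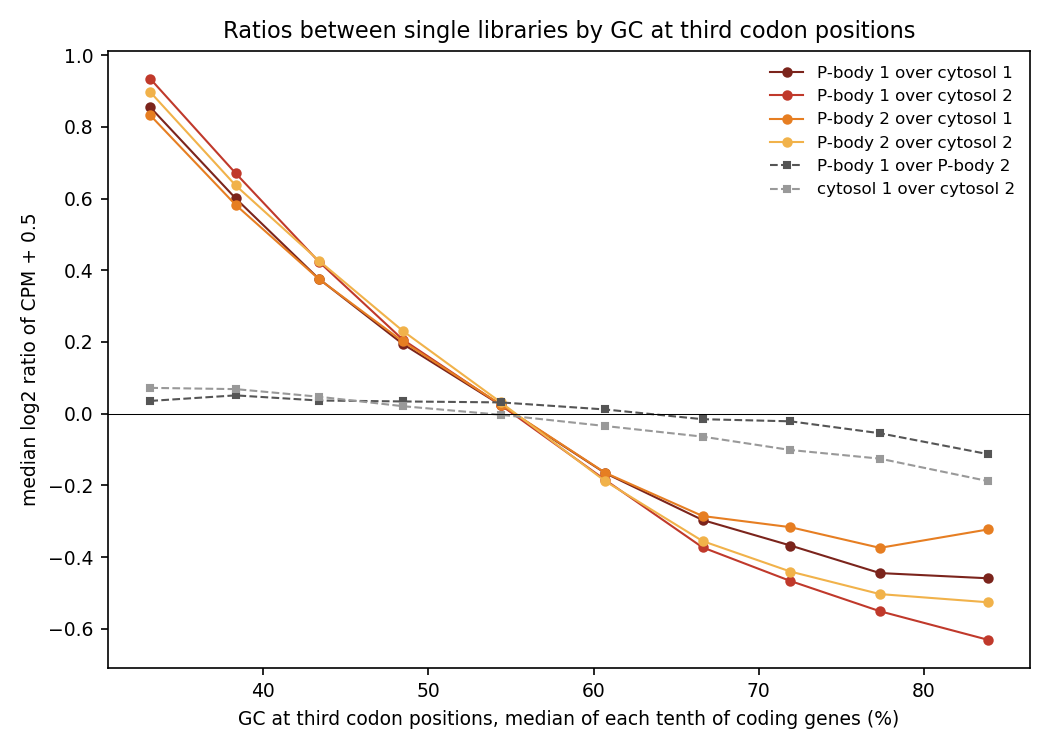
Median log2 ratio of CPM + 0.5 between single libraries for each of 10 classes of coding genes, against the median GC content at the third codon position of that class. Solid lines are the 4 ratios of a P-body over a cytosolic library, which fall from between 0.83 and 0.93 to between -0.63 and -0.32, and dashed lines are the ratios within a group, which stay between -0.19 and 0.07.

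Each of the 4 ratios of single libraries showed the gradient, with coefficients from -0.56 for P-body 2 over cytosol 1 to -0.67 for P-body 1 over cytosol 2. Libraries of the same fraction also differed along GC3. The coefficient was -0.22 for P-body 1 over P-body 2 and -0.44 for cytosol 1 over cytosol 2, although the sizes were smaller, with medians of 0.04 and 0.07 in the lowest class and -0.11 and -0.19 in the highest. The part of this drift between replicates in the gradient between fractions was not tested. The mean GC3 of coding genes weighted by their counts was 47.8% and 48.1% in the P-body libraries and 53.0% and 53.8% in cytosol.

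The untranslated regions carried the gradient less evenly. Spearman's coefficient with the log2 change was -0.59 for the GC content of the 3′ untranslated region over 11458 genes and -0.24 for that of the 5′ untranslated region over 11204. It was 0.18 for the length of the 3′ region and 0.01 for coding length. The density of the pentamer ATTTA in 3′ regions of at least 200 bases, a core letter pattern of AU-rich elements, had a coefficient of 0.41 over 10206 genes. From the lowest to the highest density the median log2 change was 0.26, 0.51 and 0.63 in genes with AT-rich 3′ regions and -0.07, 0.07 and 0.09 in those with intermediate ones. It was -0.50, -0.52 and -0.50 in genes with GC-rich 3′ regions.

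Coding GC3 and the GC content of the 3′ region moved together, so genes were also grouped by both. With GC3 low, the median log2 change was 0.67 where the 3′ region was AT-rich (2707 genes) and 0.17 where it was GC-rich (60 genes). With GC3 high, it was -0.17 where the 3′ region was AT-rich (163 genes) and -0.54 where it was GC-rich (2879 genes). Both properties were thus ordered the same way inside every level of the other. Coding length, with an overall coefficient of 0.01, was ordered in opposite ways at the ends of GC3. From short to long coding sequences the median rose from 0.37 to 0.77 with GC3 low and fell from -0.31 to -0.71 with GC3 high, with coefficients of 0.16 and -0.32 over 3974 genes each. This split by coding length was chosen after the data were seen. Replicates also differed along coding length, with coefficients of 0.24 for P-body 1 over P-body 2 and -0.14 for cytosol 1 over cytosol 2, whose part in this was not tested. Grouping by mean level did not remove the GC3 order, with medians of 0.43 to 0.77 at low GC3 and -0.49 to -0.48 at high GC3.

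**Figure D3:**
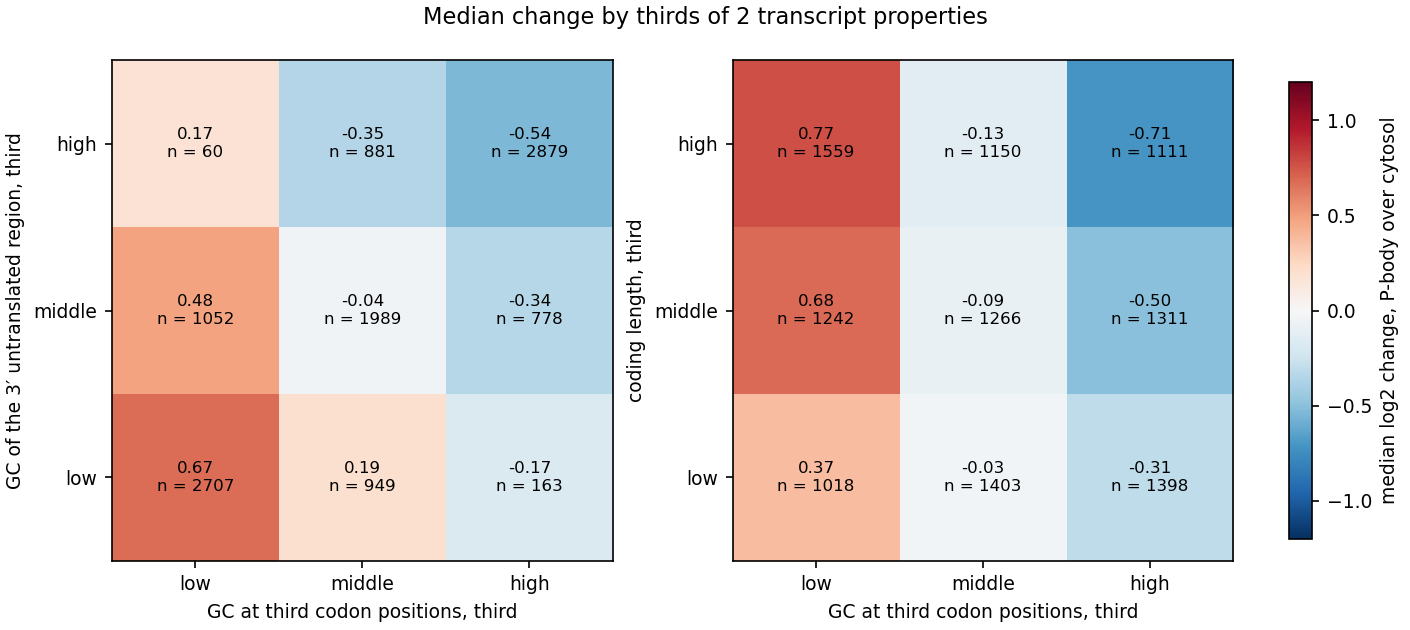
Median log2 change, P-body over cytosol, of coding genes grouped by low, middle or high GC content at the third codon position (columns) and, in rows, by the GC content of the 3′ untranslated region (left) or coding length (right), with the number of genes in each field. Red fields lie above 0 and blue fields below, and the right panel shows changes growing with coding length in opposite directions at low and high GC content.

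The gradient was also present within synonymous codons, where the encoded residue is the same. For each amino acid, the share of its codons that a gene spells in a given way was related to the log2 change over genes with at least 10 such residues. All 30 codons that end in A or T had a positive coefficient, from 0.06 to 0.61. Of 29 codons that end in G or C, 27 had a negative coefficient, down to -0.61. The exceptions were TTG for leucine (0.41) and AGG for arginine (0.14). The widest contrast was at glutamate, with 0.61 for GAA and -0.61 for GAG over 10828 genes. Lysine followed, with 0.60 for AAA and -0.60 for AAG. Where an amino acid has only a pair of codons, as here, their shares and so their coefficients mirror each other by construction. Both codons of such a pair enter the counts above, so those counts are not of independent codons. The amino acids themselves were ordered too. The share of lysine in a protein had a coefficient of 0.45, that of asparagine 0.37 and that of isoleucine 0.26, whereas alanine was at -0.36, glycine at -0.30 and proline at -0.30, over 11720 genes. Lysine, asparagine and isoleucine have AT-rich codons, and alanine, glycine and proline have GC-rich ones.

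Close paralogs, which encode nearly the same protein with different letters, showed this for single genes. In 71 pairs, each made of the members of a family with the highest and the lowest change, the higher member had the lower GC3 in 55. Of 38 pairs with at least 80% protein identity this held in 31, and in 14 of the 38 the members were called in opposite directions. The count of 14 depends on the fit, since DESeq2 did not call the lower members KPNA6, VPS4A, MAPK9 and SMAD3, described below. The widest pair with at least 80% identity was TNPO1 and TNPO2, transportins that carry RNA-binding proteins into the nucleus, with 83.6% identity. TNPO1 was at 1133 and 1007 CPM in P-bodies and 237 and 232 in cytosol (log2 change 2.19 ± 0.0772), with a GC3 of 38.3%. TNPO2 was at 5.39 and 6.25 CPM against 12.3 and 11.9 (-1.05 ± 0.172), with a GC3 of 78.9%. The groups did not overlap for either gene and moved in opposite directions.

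The stretches below each spell 20 residues that are identical in both members of a pair, read 5′ to 3′ from the coding sequence in GENCODE release 29 on GRCh38. They are shown because the protein is the same and the letters are not. Capitals mark the bases that differ between the members. TNPO1 lies on chromosome 5 from 72816312 to 72916733 on the plus strand and TNPO2 on chromosome 19 from 12699194 to 12724011 on the minus strand. VPS4B lies on chromosome 18 from 63389190 to 63422483 on the minus strand and VPS4A on chromosome 16 from 69311356 to 69326939 on the plus strand. MAPK8 lies on chromosome 10 from 48306639 to 48439360 on the plus strand and MAPK9 on chromosome 5 from 180233143 to 180292099 on the minus strand.
TNPO1 codons 65 to 84: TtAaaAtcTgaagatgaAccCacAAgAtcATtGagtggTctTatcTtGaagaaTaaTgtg
TNPO2 codons 55 to 74: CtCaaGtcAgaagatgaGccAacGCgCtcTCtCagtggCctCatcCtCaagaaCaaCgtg
VPS4B codons 135 to 154: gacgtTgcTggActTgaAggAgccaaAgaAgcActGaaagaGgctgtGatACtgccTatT
VPS4A codons 128 to 147: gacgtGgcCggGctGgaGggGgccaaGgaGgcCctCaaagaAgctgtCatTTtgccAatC
MAPK8 codons 55 to 74: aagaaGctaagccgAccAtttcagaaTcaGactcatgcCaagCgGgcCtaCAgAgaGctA
MAPK9 codons 55 to 74: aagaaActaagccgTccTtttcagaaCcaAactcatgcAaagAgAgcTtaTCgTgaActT

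In the transportin stretch 18 of 60 bases differed, 14 of them at the third position of a codon, and 6 of 20 codons ended in G or C in TNPO1 against 14 of 20 in TNPO2. In the stretch of VPS4, the ATPase that disassembles ESCRT filaments, 16 bases differed, 15 of them at the third position. There 6 of 20 codons ended in G or C in VPS4B and 15 of 20 in VPS4A. VPS4B was at 268 and 259 CPM in P-bodies and 79.9 and 80.1 in cytosol (log2 change 1.72 ± 0.0758). VPS4A was at 55.6 and 54.4 CPM against 64.8 and 66.8, a log2 change of -0.26 whose call was lost under DESeq2 (-0.21), under RLE size factors, with no filter on low counts and in 3 of 4 fits that each left out a library, down to -0.16 without HEL P-body replicate 2. The JNK kinases MAPK8 and MAPK9 were close in GC3, 39.6% and 41.3%, with the lower value in the higher member. The stretch shown had the opposite order, since in it MAPK8 had 11 of 20 codons that end in G or C and MAPK9 had 5. MAPK8 was at 77.6 and 80.2 CPM in P-bodies against 34.2 and 31.5 (log2 change 1.26 ± 0.0965), while MAPK9 was at 24.6 ± 6.47 CPM (mean ± SD, n = 2) against 33.1 and 33.3. The change of MAPK9 (-0.43) was -0.18 and not called without HEL P-body replicate 1, and was not called by DESeq2 (-0.39).

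The other wide pairs were those of importin alpha, G protein beta subunits and SMAD proteins. KPNA5 was 4.93-fold higher (559 and 537 CPM against 120 and 103) with a GC3 of 26.3%. KPNA6, with a GC3 of 54.9%, had a log2 change of -0.26. Its call was lost under RLE size factors (-0.21), by DESeq2 (-0.21) and without HEL P-body replicate 2 (-0.10). GNB4 was 1.80-fold higher, at 239 and 243 CPM against 141 and 127. GNB1 was 2.66-fold lower, at 51.9 and 115 CPM against 179 and 263, with a GC3 of 67.6% against 38.8% in GNB4. Its replicates were far apart, and the log2 change of -1.41 ran from -2.01 to -0.94 without single libraries. SMAD2, which carries TGF-beta signals to the nucleus, had a log2 change of 0.84, and its partner SMAD3, at 2.76 and 1.82 CPM against 4.68 and 4.73, one of -1.03. SMAD3 was not called without HEL P-body replicate 2 (-0.68) or by DESeq2 (-0.99).

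**Figure D4:**
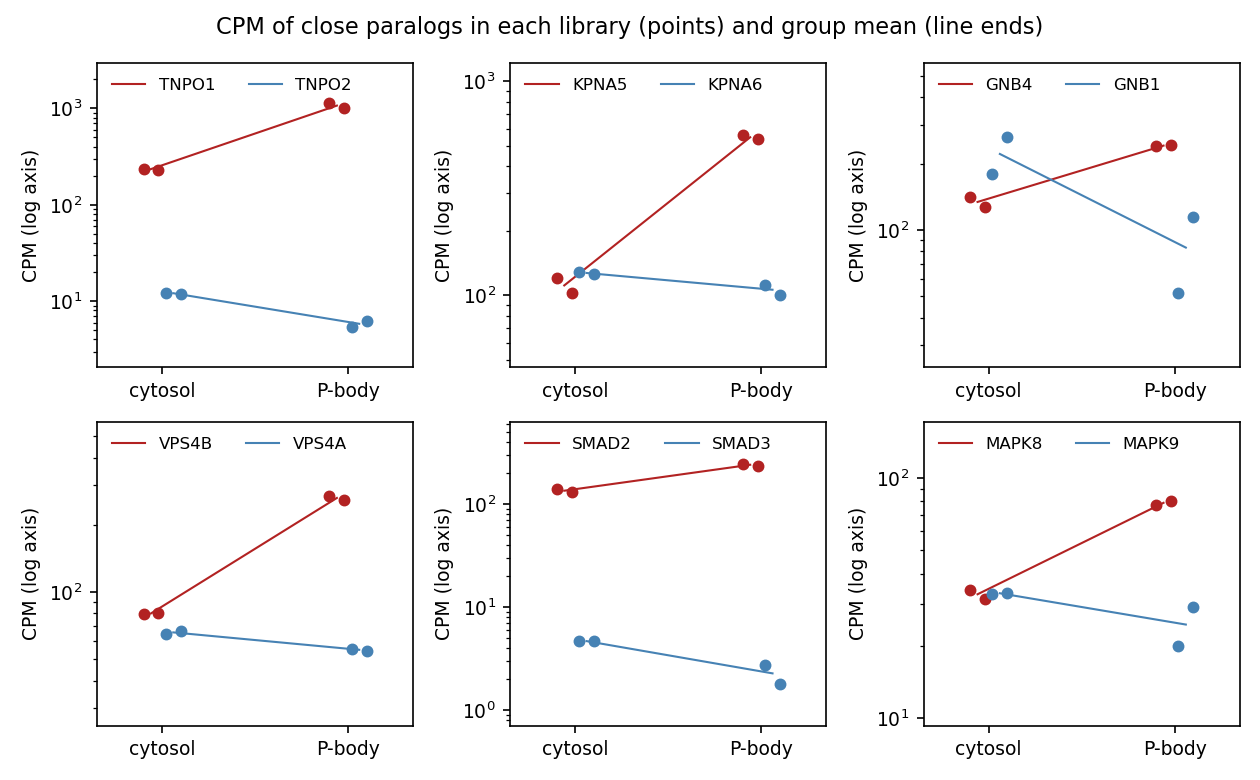
CPM on log axes of both members of the 6 widest paralog pairs with at least 80% protein identity, in each cytosolic and each P-body library (points), with line ends at the group means. Red marks the member with the higher change and blue its paralog; the blue lines of TNPO2 and GNB1 fall while the red lines of TNPO1 and GNB4 rise.

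Some genes went against their base composition. Of 3974 genes with low GC3 (22.3% to 47.6%), 307 were lower in P-bodies, and of 3974 with high GC3 (67.4% to 97.0%), 162 were higher. The genes named from both sets were the 10 with the largest change and at least 10 CPM, a rule made after the data were seen. Of the 10 lower genes with low GC3, 9 had coding sequences over 3000 bases. They included LRBA, a large protein of vesicle traffic (40.7 and 36.4 CPM against 106 and 110, log2 change -1.49), and SRRM2, a splicing factor of nuclear speckles (223 and 199 CPM against 549 and 600, log2 change -1.45). The nucleoporins NUP214 and NUP98 (-1.16 and -1.02), the Mediator subunit MED14 (-1.13) and the deubiquitinase USP9X (-0.98) were also of this kind. Of the 10 higher genes with high GC3, 7 had 3′ regions with under 40% GC. ZBTB20, a zinc finger repressor, was at 136 and 135 CPM against 37.3 and 36.9, and CAVIN2, a coat protein of caveolae, at 631 and 564 against 247 and 251. NFKBIA, the inhibitor that holds NF-kappaB in the cytoplasm, was 2.15-fold higher (209 and 212 CPM against 94.0 and 101), with a GC3 of 74.4% and 35.7% GC in its 3′ region. Over all low-GC3 genes, the median coding length was 1812 bases in those called lower and 1746 in those called higher. The long coding sequences of the named genes thus do not describe the whole set. Over all high-GC3 genes, the median GC content of the 3′ region was 43.3% in those called higher and 54.6% in those called lower.

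Genes of the erythroid and megakaryocytic lineages were divided by their products. Of 36 tested genes for megakaryocyte and platelet proteins, 27 were lower and 4 higher, with a median log2 change of -0.85 against -0.06 over all genes. VWF, the adhesive protein that platelets store and release, had the lowest value, at 1.76 and 0.846 CPM in P-bodies and 10.9 and 14.9 in cytosol (log2 change -3.30 ± 0.282, from -3.92 to -2.79 without single libraries). PPBP, a platelet chemokine, was 3.25-fold lower (3.89 and 4.10 CPM against 12.8 and 13.1). The higher members included ANGPT1, a ligand of the receptor TIE2, at 566 and 542 CPM against 180 and 157, and CD226, an adhesion receptor, at 227 and 201 against 97.2 and 87.4. After a loess trend over GC content and length of the whole transcript was subtracted, the median of this list was -0.66. The same subtraction moved the median from -0.69 to -0.32 for integrins and matrix genes, from -0.36 to -0.03 for the MAP kinase cascade, from -0.41 to -0.04 for G protein and RGS genes and from 0.35 to 0.12 for DNA repair, lists described below. It gave -0.29 for JAK-STAT receptors, kinases and STATs, -0.38 for lysosomal genes, -0.39 for cholesterol genes and -0.42 for COPI, COPII and tethering genes.

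Transcription factors of the same lineages did not share a direction. Of 32 tested, 10 were higher and 9 lower (31.25% and 28.1%). These shares were close to the 27.5% and 27.1% over all tested genes, against which counts of the other lists are also to be read. The median of these factors, -0.10, turned positive after the loess trend was subtracted (0.19) and without HEL P-body replicate 1 (0.02). Beside MECOM, BCL11A, a repressor of fetal globin, was higher (3.51 and 1.56 CPM against 0.543 and 0.404, log2 change 2.42 ± 0.482, from 1.72 to 2.97 without single libraries). GATA1, the master regulator of the erythroid lineage, was lower at 214 and 209 CPM against 342 and 350, a log2 change of -0.71 ± 0.0691. RUNX1 had the same change, at 98.4 and 102 CPM against 165 and 163, and the corepressor CBFA2T3 was 2.00-fold lower.

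Genes of the erythroid membrane were split as well, with 11 higher and 12 lower of 34 (32.4% and 35.3%). ADD3, an adducin of the membrane skeleton, was at 117 and 109 CPM against 24.9 and 25.4, 4.49-fold higher. Beta spectrin (SPTB) was 2.39-fold lower, at 55.1 and 50.2 CPM against 114 and 138, and the glucose transporter SLC2A1 1.88-fold lower. Haem synthesis and globin genes had 7 of 29 higher and 9 lower (24.1% and 31.0%). ALAS1, the rate-limiting enzyme of haem synthesis outside erythroid cells, was 1.60-fold lower.

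The JAK-STAT pathway passes signals from cytokine receptors to the nucleus. Its receptors, kinases and STATs had 13 of 22 lower and 4 higher, with a median of -0.48. JAK3, a kinase of cytokine receptors, was at 55.1 and 54.5 CPM against 145 and 167 (log2 change -1.51). The interferon receptor IFNAR1 and the shared cytokine receptor IL6ST were both 1.84-fold higher. Inhibitors and targets of this pathway had 11 of 35 higher and 14 lower. SOCS6 was 3.35-fold higher (210 and 213 CPM against 64.6 and 61.6) and SOCS4 3.20-fold higher, both suppressors of cytokine signalling, and the kinase PIM2 was 2.28-fold lower.

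Integrins and extracellular matrix genes had 21 of 33 lower and 7 higher, with a median of -0.69. Apart from ITGB5 and NID1, the platelet integrin ITGB3 was at 125 and 116 CPM against 459 and 442. ITGA4, an integrin of blood cells, was higher at 567 and 533 CPM against 238 and 246, and the sheddase ADAM17 was 3.52-fold higher. Lysosomal hydrolases and membrane proteins had 28 of 48 lower and 3 higher, with a median of -0.48. The peptidase TPP1 was 2.54-fold lower, at 25.6 and 25.6 CPM against 65.1 and 64.9, and the mannosidase MAN2B1 2.27-fold lower. TMEM192 was 2.09-fold higher, CTSS, a cathepsin, 1.57-fold higher, and LIPA, the acid lipase, was the third (log2 change 0.25), a call lost under library totals (-0.08) and DESeq2. Cholesterol synthesis and uptake had 24 of 30 lower and 4 higher, with a median of -0.55. SREBF2, the transcription factor that drives this pathway, was at 118 and 122 CPM against 298 and 343, and the reductase DHCR7 was 2.29-fold lower. INSIG2, which retains the SREBF proteins in the endoplasmic reticulum, was 3.29-fold higher, at 198 and 188 CPM against 65.9 and 51.9.

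Of 52 genes of COPI, COPII and tethering complexes, which carry cargo along the secretory route, 29 were lower and 11 higher (median -0.29). The COPII organiser SEC16A was 2.85-fold lower and the coatomer subunit COPG1 2.14-fold lower, while TRAPPC13 was 2.70-fold higher and LMAN1, a cargo receptor, 1.86-fold higher. Glycosylation enzymes had 22 of 52 lower and 14 higher (-0.19). Endosomal sorting genes had 20 of 57 lower and 16 higher, with the retromer subunit VPS26A 2.62-fold and VPS50 3.07-fold higher. Of 17 vacuolar ATPase genes 5 were lower and 3 higher, among them the accessory subunit ATP6AP1, 2.20-fold lower, and ATP6V1C1, 1.96-fold higher.

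**Figure D5:**
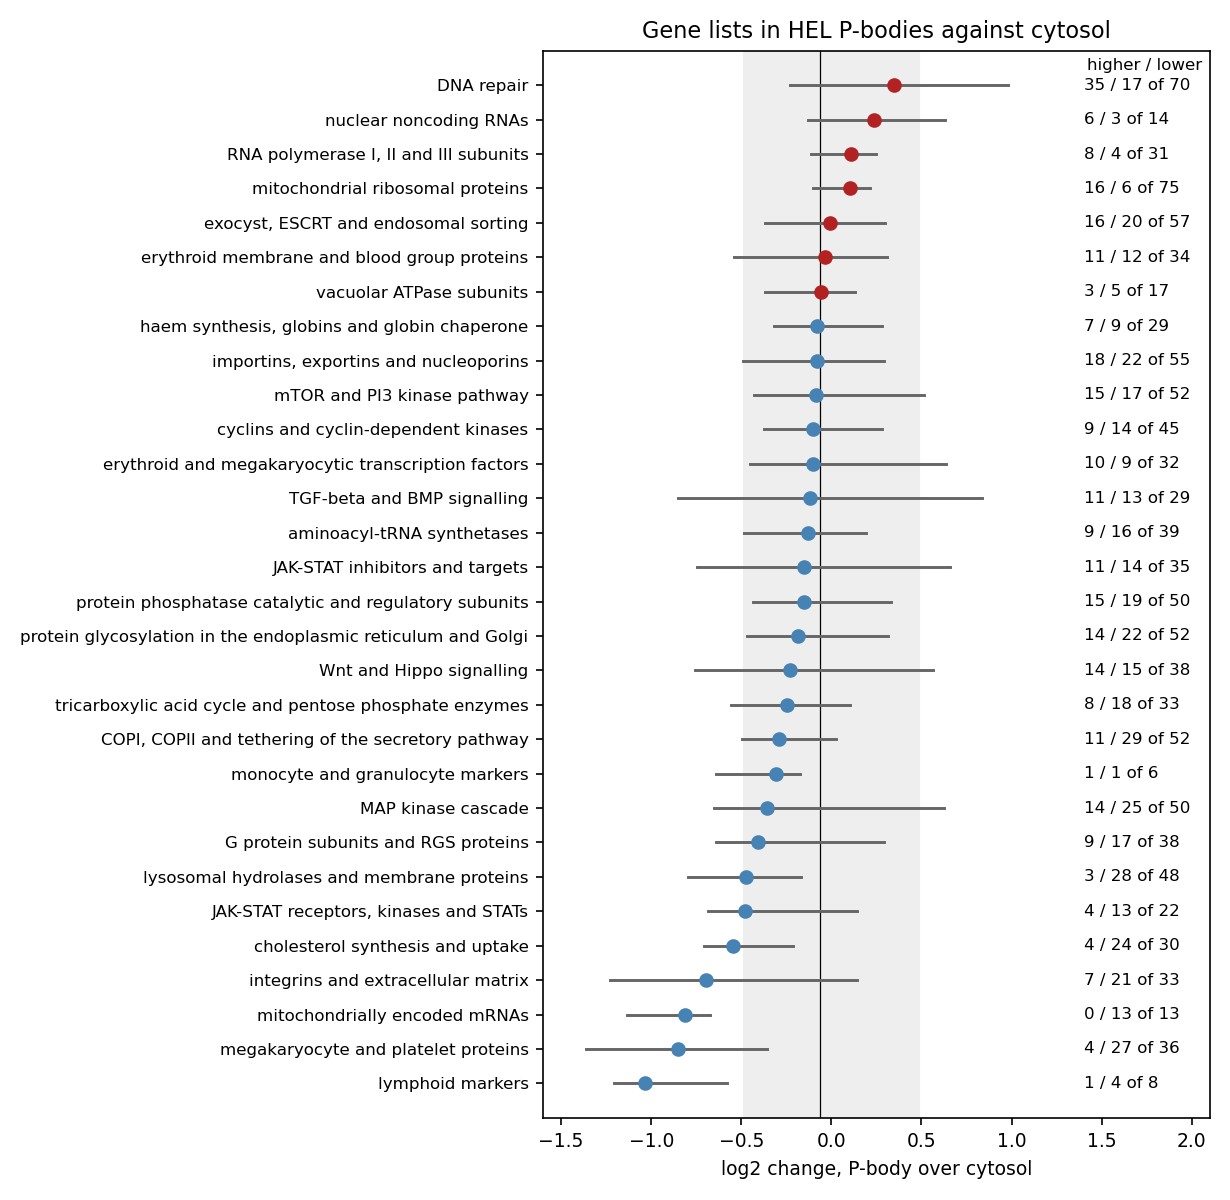
Median log2 change, P-body over cytosol, of the tested members of each of 30 gene lists (points; red above and blue below the median of all genes), with lines over the quartiles of members and the counts called higher and lower at right. The vertical line and grey band are the median and quartiles of all 14772 tested genes; DNA repair genes lie at the top with 0.35 and lymphoid markers, of which 8 were tested, at the bottom with -1.04.

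Signalling cascades inside the cell held members at both ends. The MAP kinase cascade had 25 of 50 lower and 14 higher (median -0.36). RASA2, a GTPase-activating protein of Ras, was 4.41-fold higher at 389 and 376 CPM against 88.5 and 85.3, and the scaffold SHOC2 2.99-fold higher. The phosphatase DUSP7 was 2.71-fold lower. The mTOR and PI3 kinase pathway had 17 of 52 lower and 15 higher (32.7% and 28.8%). These shares were close to those over all tested coding genes, 30.5% lower and 31.1% higher. PIK3R1, the regulatory subunit of PI3 kinase, was at 316 and 282 CPM against 75.2 and 68.9, and the mTORC2 scaffold RICTOR was 3.06-fold higher. INPP5D, a lipid phosphatase of blood cells, was 2.27-fold lower, and PIK3R4 2.16-fold lower. TGF-beta and BMP genes had 13 of 29 lower and 11 higher. SKIL and SMAD5 were 3.43-fold and 2.89-fold higher, and the inhibitor SMAD6 and the coreceptor ENG 2.97-fold and 2.85-fold lower. Wnt and Hippo genes had 15 of 38 lower and 14 higher, with the Wnt coreceptors in opposite directions. LRP6 was at 242 and 199 CPM against 82.2 and 72.0, and LRP5 at 8.65 and 13.3 against 27.7 and 34.0. G protein subunits and RGS proteins had 17 of 38 lower and 9 higher (-0.41), with GNAQ 2.85-fold and RGS2 2.95-fold higher.

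DNA repair genes were the list with the most members higher. Of 70 tested, 35 were higher and 17 lower. The median was 0.35, and 0.02 under library totals. POLK, a polymerase that copies past damaged bases, was at 434 and 399 CPM against a cytosolic mean of 90.6 ± 0.790 CPM (SD, n = 2), a log2 change of 2.20. FANCB, a subunit of the Fanconi core complex, was 3.79-fold higher and BARD1, the partner of BRCA1, 3.30-fold higher. PRKDC, the DNA-dependent protein kinase, was 2.22-fold lower at 349 and 333 CPM against 770 and 747, and MDC1, a scaffold at DNA breaks, 2.69-fold lower. Genes of nuclear transport had 18 of 55 higher and 22 lower, with KPNA3 3.65-fold higher and NUP210 2.94-fold lower.

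RNA polymerase subunits had 8 of 31 higher and 4 lower. The largest subunits of the 3 polymerases differed. POLR2A was 2.96-fold lower (67.7 and 72.8 CPM against 206 and 211) and POLR1A 1.75-fold lower, while POLR3A, named after its value was seen, was 1.36-fold higher. POLR3G, POLR3F and POLR1F were 2.64-fold, 2.49-fold and 2.49-fold higher. Cyclins and their kinases had 9 of 45 higher and 14 lower. The elongation cyclins CCNT1 and CCNT2 were 4.22-fold and 2.86-fold higher and CCNE2, a cyclin of S phase entry, 3.01-fold higher, and CCNF was 1.85-fold lower. Protein phosphatases had 15 of 50 higher and 19 lower. PPP1R12A, a subunit that targets a phosphatase to myosin, was higher at 1824 and 1663 CPM against 489 and 481.

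Nuclear genes for mitochondria and translation followed. Of 75 mitochondrial ribosomal protein genes 16 were higher and 6 lower. Their median was 0.10 (-0.22 under library totals), and the middle 50% ran from -0.10 to 0.21. MRPL1 was 2.74-fold higher. Aminoacyl-tRNA synthetases, which charge tRNAs, had 9 of 39 higher and 16 lower. RARS1 and TARS1 were 2.80-fold and 2.18-fold higher and AARS1 and VARS1 2.17-fold and 1.97-fold lower. Enzymes of the tricarboxylic acid cycle and pentose phosphate pathway had 18 of 33 lower and 8 higher, with PDHX 2.34-fold higher and OGDH 1.88-fold lower. The 13 mRNAs encoded by mitochondrial DNA were all lower, MT-ATP8 the most (4.08 and 4.42 CPM against 16.5 and 11.9), and they took 0.520% ± 0.0176 of P-body counts and 0.968% ± 0.0819 of cytosolic counts with the rest of that genome (SD, n = 2).

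All symbols that share their leading letters were also grouped, which gave 96 families with at least 15 tested members. The highest medians were those of CEP (0.79, centrosomal proteins, 22 of 37 higher and 5 lower), ZNF (0.68, zinc finger proteins, 258 of 467 higher and 73 lower) and ZFP (0.56). They were followed by KIF kinesins (0.47), USP deubiquitinases (0.43), FBXO ubiquitin ligase adaptors (0.41), ZBTB zinc finger proteins (0.39) and TAF subunits of the general transcription machinery (0.37). The lowest were SEMA semaphorins (-0.89, 10 of 15 lower and 3 higher), TSPAN tetraspanins (-0.48) and MYO myosins (-0.47). PEX peroxisome factors (-0.42), AP (-0.41), TRAPPC tethering factors (-0.39), MAPK kinases (-0.38) and DUSP phosphatases (-0.32) came next. The median GC3 was 37.2% for CEP and 42.8% for ZNF, and 70.6% for SEMA and 76.5% for DUSP. After the loess trend was subtracted, CEP, ZNF and ZFP had medians of 0.37, 0.38 and 0.37. KIF, USP, FBXO, ZBTB and TAF had 0.12, 0.16, 0.02, 0.36 and 0.25. At the low end, SEMA, TSPAN, MYO and PEX had -0.23, -0.27, -0.16 and -0.27. AP, TRAPPC, MAPK and DUSP had -0.14, -0.14, -0.11 and -0.21.

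Outside coding genes, antisense genes were more often lower than higher, 108 (16.6%) against 45 (6.91%) of 651, with a median of -0.26. Intergenic noncoding RNAs had 98 higher (17.0%) and 85 lower (14.7%) of 578. Pseudogenes had 134 higher (13.1%) and 72 lower (7.03%) of 1024. All these shares were below the 27.5% higher and 27.1% lower over all tested genes. The median was -0.14 for intergenic noncoding RNAs and 0.06 for pseudogenes. Antisense genes, intergenic noncoding RNAs and pseudogenes took 0.283%, 0.424% and 0.484% of P-body counts, against 97.9% for coding genes. The part of low counts in the shares called was not tested. Without a stated strand setting an antisense gene cannot be told apart from its partner, and a processed pseudogene may hold reads of its parent gene. Among 14 nuclear noncoding RNAs 6 were higher and 3 lower. The median of this list, 0.24, was -0.09 under library totals and -0.24 after the loess trend was subtracted. OIP5-AS1 was at 650 and 647 CPM against 319 and 288 and SNHG14 at 205 and 207 against 47.2 and 52.4, while NEAT1, the scaffold of paraspeckles, was at 14.7 and 18.5 against 37.5 and 34.2. By chromosome, coding genes had their lowest medians on chromosomes 16 (-0.36), 22 (-0.35) and 19 (-0.30), where the median GC3 was 71.1%, 72.5% and 74.7%. The highest were on chromosomes 13 (0.43), 4 (0.35) and 18 (0.28), with a median GC3 of 44.5%, 44.6% and 46.7%. Of all symbols, 402 were counted in both P-body libraries and neither cytosolic one, and 1048 the other way round. With at least 10 counts in all, these were 6 and 18.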

How the data were processed

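RNA of P-body and cytosolic fractions of HEL cells was sequenced in 2 libraries each. The miRNeasy Micro kit gave the RNA and NEBNext Ultra II reagents the libraries, per the labels' protocols. How P-bodies were isolated was not stated in the labels, and "cyto" was read as cytosolic. The authors deposited raw counts by gene symbol. STAR, SAMtools 1.12, DESeq2 and GRCh38 are named in the submitters' processing notes, with the read counter, annotation and strand setting not given in the sources used here. The 1348 rows of 112 repeated symbols (0.0193% to 0.0264% of counts) were left out.

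Counts were fitted with edgeR 4.0.16 in R 4.3.3 (quasi-likelihood test, TMM, filterByExpr with a smallest count of 10, group as the only term, Benjamini-Hochberg adjustment over 14772 genes), by a script tested on simulated data. TMM factors were 0.884 and 0.903 for P-body and 1.12 for both cytosolic libraries, and the common biological coefficient of variation was 0.0781. P-values measure the variation among these 4 libraries only, and whether replicates were separate cultures is not given. No spike-in is named, and depth is that of the total counts. An exact permutation test of 2 against 2 could not go below p = 0.333 and was not used.

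Of 60196 symbols, 56950 matched GENCODE release 29, whose longest coding transcript per gene gave base composition and lengths. The trend was a loess fit across 14505 genes, coding and noncoding, over GC content and log2 length of the whole transcript (span 0.3). GC3 was not a term of this fit. Ratios between single libraries used CPM with 0.5 added. Members and lists were chosen with earlier results of these data known. Named genes were the 12 largest changes in each direction among called genes with at least 10 CPM and no overlap between groups, the 10 most abundant in P-bodies, up to 3 called members at each end of a list, and the paralog pairs described. Alternatives were RLE size factors, library totals, DESeq2 1.42.0, other filters, a replicate block, and leaving out each library. Some genes that this rule names are not reported here.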

Additional observations from a re-analysis of the deposited data

How the results depend on the processing

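No gene called in the fit reported above was called in the opposite direction in any alternative, which were RLE size factors, library totals, DESeq2, no filter on low counts, a mean CPM of at least 5, the replicate block and the 4 fits that each left out a library. Under library totals 6761 genes were lower, 1097 at least 2-fold higher and 2339 at least 2-fold lower. DESeq2 called 2606 lower and 555 at least 2-fold lower, and a mean CPM of at least 5 left 584 at least 2-fold lower. Without 1 library, 3553 to 4185 genes were higher and 3049 to 3675 lower, and 1694 to 2081 and 604 to 1007 passed 2-fold, with the 604 found without HEL cytosol replicate 2. Gene by gene, deviations of libraries with the same replicate number were not correlated between fractions (-0.0685 over all tested genes). Along GC3, replicate 1 over replicate 2 fell in both fractions, with coefficients of -0.22 for P-bodies and -0.44 for cytosol. Along coding length the signs were opposite (0.24 and -0.14). These values cannot tell whether libraries with the same number came from the same preparation, which the labels do not give. The replicate block gave 4024 higher and 3972 lower. Library totals turned the sign of EEF1A1, which was then called lower (-0.32), and of LIPA, which was then not called (-0.077). With properties taken as the median over coding transcripts, Spearman's coefficient was -0.28 for the GC content of the 5′ untranslated region and 0.14 for 3′ length, which was 0.23 at a mean CPM of at least 20. The causes of these shifts were not tested. Low counts limit genes near 1 CPM, and with 2 libraries per fraction the spread of a single gene is poorly known.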
